A study of Rattus norvegicus with 16 samples.

Results

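Col1a1, Col1a2, Sparc, Fn1, Mmp2 and Vim are 6 genes of the extracellular matrix and of mesenchymal cells, and they were measured here in testicular germ cells (GCs) of male rats. They were taken by gene identifier from a list of 26560 genes, on condition that the chromosome listed for each identifier was the one named with it, and all 6 met it. A minimum of 1 for the mean count across the 8 mRNA libraries left 19446 genes to test, and all 6 were kept. Their identifiers were ENSRNOG00000003897 (Col1a1), ENSRNOG00000011292 (Col1a2), ENSRNOG00000012840 (Sparc), ENSRNOG00000014288 (Fn1), ENSRNOG00000016695 (Mmp2) and ENSRNOG00000018087 (Vim). The rule used no measured value, although results of these data were already known when the set was put together.

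Fibroblasts and related connective tissue cells build the matrix around the seminiferous tubules. Type I collagen is a triple helix of α1 chains, encoded by Col1a1, and an α2 chain, encoded by Col1a2. Fibronectin (Fn1) links collagen fibres to integrins on the cell surface, SPARC is a secreted protein that binds collagen, matrix metalloproteinase 2 (Mmp2) cuts denatured and basement membrane collagen, and vimentin (Vim) is the intermediate filament of mesenchymal cells. In the testis these genes are known mainly from somatic cells, that is, from peritubular, interstitial, vascular and, for vimentin, Sertoli cells.

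The rats were male Sprague-Dawley animals whose GCs carry an eGFP transgene, and both diets used this line. Animals received from weaning either a high fat diet (HFD, labelled as 40% of calories from fat) or a control diet (CD, 10% of calories from fat), and both groups were 19 weeks old at the end of feeding. The study's methods give another fat content for the HFD than the label. Testes were dispersed with collagenase, and the suspensions were sorted for eGFP, so that the libraries hold RNA of every cell inside the gate. The set has 4 HFD and 4 CD mRNA libraries, and small RNA was sequenced in another 4 and 4. The comparison asked whether diet changed RNA levels in the GCs from which the next generation descends.

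Assigned counts ranged from 39042726 to 62038805 in the HFD mRNA libraries and from 38633043 to 53742726 in the CD libraries. Library CD 4 stood apart: without it, 3379 genes had an unadjusted p under 0.05 in edgeR's quasi-likelihood test of diet, against 725 with it, and 0 genes passed the adjusted threshold either way. Library CD 1 had the lowest TMM composition factor (0.856). The labelled cell type could not be checked against GC, fibroblast or other somatic markers, because the genes are listed by identifier and none of the 26560 identifiers matched the gene name table used here. In bulk RNA, fewer cells of a type and less RNA per cell cannot be told apart.

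In the rn5 assembly, Col1a1 lay at chr10:82563434-82580363 on the plus strand with 5825 exon bases, and Col1a2 at chr4:31405253-31440179 on the plus strand with 4464. Sparc lay at chr10:40573518-40595276 on the minus strand (2036 exon bases), Fn1 at chr9:78674439-78743407 on the minus strand (8331), Mmp2 at chr19:26630488-26658966 on the minus strand (2280) and Vim at chr17:82500858-82509377 on the plus strand (1830). The gene spans came to between 99.6% and 101% of those of the RefSeq genes of the same symbols. An opposite-strand gene overlapped 2 of the members. The gene inside the span of Col1a2, ENSRNOG00000009957, shared no exon with it and had 14 to 30 counts in the HFD and 10 to 26 in the CD libraries. The one at Fn1, ENSRNOG00000037894, overlapped 2 exon rows of Fn1 and had between 0 and 4 counts per library. The library kit as named does not mark strand, whereas the counting kept reverse-strand reads, so reads from the exon rows that Fn1 shares with its neighbour cannot be told apart.

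The promoter table held Col1a2, Sparc and Vim, and their promoters are shown as the start regions of the members it covered. Sequences are from RefSeq on GRCr8, run 5′ to 3′ on the gene's strand from 250 bases before the annotated start to 50 after it, and cover chr4:33518307-33518606 (plus) for Col1a2, chr10:40038767-40039066 (minus) for Sparc and chr17:81577011-81577310 (plus) for Vim. Capitals mark matches to 3 motifs searched on both strands. The first was the letters CCAAT, which read ATTGG on the other strand. The next was TATAA, whose other strand reads TTATA and can overlap it. The last was GGGCGG, which reads CCGCCC on the other strand.
Col1a2: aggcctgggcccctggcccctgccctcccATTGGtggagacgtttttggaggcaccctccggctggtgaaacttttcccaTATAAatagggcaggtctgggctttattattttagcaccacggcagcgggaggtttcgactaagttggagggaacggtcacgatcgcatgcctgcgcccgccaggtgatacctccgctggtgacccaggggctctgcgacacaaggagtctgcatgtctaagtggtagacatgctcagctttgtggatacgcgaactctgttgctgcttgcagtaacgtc
Sparc: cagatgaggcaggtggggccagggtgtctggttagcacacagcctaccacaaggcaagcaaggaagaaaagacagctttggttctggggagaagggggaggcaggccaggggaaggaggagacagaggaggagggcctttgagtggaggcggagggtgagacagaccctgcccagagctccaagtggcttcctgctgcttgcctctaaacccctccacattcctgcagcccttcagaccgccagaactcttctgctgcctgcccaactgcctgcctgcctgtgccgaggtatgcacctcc
Vim: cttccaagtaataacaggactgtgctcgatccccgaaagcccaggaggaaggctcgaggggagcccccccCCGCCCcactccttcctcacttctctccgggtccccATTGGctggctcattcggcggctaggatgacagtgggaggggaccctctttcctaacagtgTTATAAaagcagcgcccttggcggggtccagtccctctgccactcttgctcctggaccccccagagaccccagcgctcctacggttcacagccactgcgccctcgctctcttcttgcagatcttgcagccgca
Over 33469 promoters of the same length, CCAAT was present in 37.5%, TATAA in 26.2% and GGGCGG in 33.1%. The Col1a2 window held a CCAAT box on its minus strand at -221 and a TATAA at -170 from the annotated start. The Vim window held all 3 motifs, with TATAA matches of both strands that overlapped. None of the 3 motifs was found in the Sparc window.

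Levels of the 6 genes ran from the middle of the range of expressed genes down to the edge of detection. On the RPKM scale, which divides the counts by exon length and by library size, the median of the genes tested was 1.56. Vim had the highest level of the set at 2.61 ± 0.989 RPKM (SD, n = 8 libraries), the 55.8th percentile of all genes tested. Sparc followed at 1.57 ± 0.617 RPKM, the 50.1st percentile. Both of these genes thus lay near the middle of the transcriptome.

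The collagen chains and the remaining genes were well below it. Col1a1 had 0.384 ± 0.123 RPKM (percentile 32.8) and Col1a2 0.0955 ± 0.0686 RPKM (percentile 16.1). Fn1, which had the longest exon total of the set, had 0.0321 ± 0.0174 RPKM (percentile 5.82). Mmp2 was at the edge of detection, at 0.0111 RPKM on average (percentile 0.931), with 4 of the 8 libraries at 0.

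The order Vim, Sparc, Col1a1, Col1a2, Fn1, Mmp2 was found on both diets. Each gene exceeded the next one in 8 of 8 libraries in RPKM, which gave an exact sign-flip permutation p of 0.00781 for each of the 5 neighbour pairs (two-sided; 0.00781 after adjustment over the 5 pairs), the smallest that 256 sign flips allow. The mean log2 differences of RPKM were 0.74 between Vim and Sparc, 1.98 between Sparc and Col1a1, 2.21 between Col1a1 and Col1a2 and 1.44 between Col1a2 and Fn1. These steps correspond to 1.67, 3.95, 4.62 and 2.72-fold. The step from Fn1 to Mmp2 is given without a size because of the libraries at 0.

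**Figure D1:**
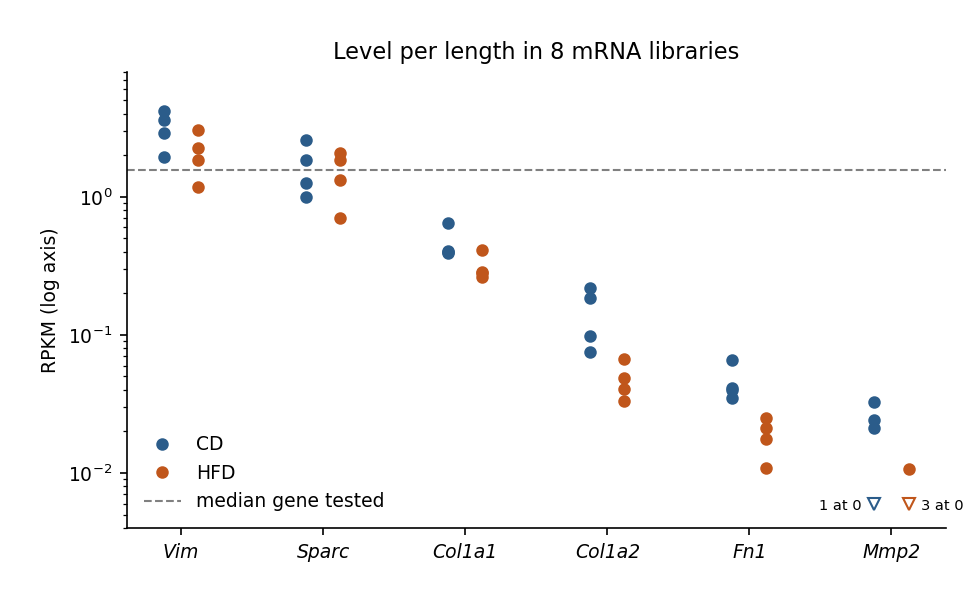
RPKM on a log axis for the 6 genes, 1 point per library (blue CD, orange HFD), with the median of all tested genes (1.56 RPKM) as a dashed line. Open triangles count Mmp2 libraries at 0, which were 1 CD and 3 HFD. The genes step down from Vim (mean 2.61) to Mmp2 (mean 0.0111).

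Diet was compared in edgeR's quasi-likelihood model over all 19446 genes. None of the 6 genes passed an adjusted p of 0.05, and the percentage of all genes that did was 0, with the lowest adjusted p over all genes at 0.8293. All 6 members had a fitted log2 fold change below 0 (HFD minus CD), as did 51.2% of all genes. Unadjusted p-values under 0.05 with a lower level on the HFD were found for 3 members (Col1a1, Col1a2 and Fn1) and for 2.52% of all genes. No member had such a p with a higher level on the HFD, which 1.21% of all genes had, and DESeq2 called none of the 6 with or without shrinkage of the fold changes (0.0309% and 0.036% of all genes called). Members are not independent of each other, and the 6 genes are described here by count only.

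Col1a2, the α2 chain of type I collagen, had the lowest unadjusted p of the set. Its counts were 6, 20, 8 and 10 in HFD libraries 1 to 4 and 40, 16, 18 and 38 in CD libraries 1 to 4. After scaling to library size and TMM factor (CPM), these were 0.147, 0.298, 0.181 and 0.219 in HFD rats, against 0.969, 0.439, 0.335 and 0.822 in CD rats. Every HFD library was below every CD library, which held for 1.04% of all genes (the opposite, every HFD library above every CD library, held for 1.07% and for no member), and CD 1 and CD 4 were well above the other CD libraries. The means were 0.211 ± 0.0647 CPM (SD, n = 4) against 0.641 ± 0.303 CPM. The log2 fold change was -1.55 (SE 0.409) with an unadjusted p of 0.00284 and an adjusted p of 0.8293 in edgeR, and a two-sided exact permutation test of the CPM gave p = 0.0286, the smallest that 70 labellings allow. By unadjusted p it ranked 20 of 19446 genes.

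Fn1, the fibronectin gene, was the other member without overlap between the diets. Counts were 6, 14, 4 and 8 in the HFD libraries and 12, 20, 18 and 16 in the CD libraries. The CPM values were 0.147, 0.209, 0.0907 and 0.175 in HFD rats, against 0.291, 0.549, 0.335 and 0.346 in CD rats. The highest HFD library (HFD 2) stayed below the lowest CD library (CD 1), and HFD 3 was the lowest of all. Mean CPM was 0.155 ± 0.0499 against 0.380 ± 0.115, with a log2 fold change of -1.24 (SE 0.391), an unadjusted edgeR p of 0.00869, an adjusted p of 0.8293 and an exact permutation p of 0.0286.

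Col1a1, the α1 chain, was measured with more counts and showed a smaller difference. Counts were 62, 109, 73 and 109 on the HFD and 155, 84, 123 and 109 on the CD, or 1.52, 1.62, 1.66 and 2.39 CPM against 3.76, 2.304, 2.29 and 2.36 CPM. The diets overlapped through HFD 4, which was above CD 2, CD 3 and CD 4, while CD 1 was far above all other libraries. Means were 1.80 ± 0.397 CPM for HFD and 2.68 ± 0.720 CPM for CD. The log2 fold change was -0.57 (SE 0.218, edgeR unadjusted p = 0.0230, adjusted p = 0.8293), and the exact permutation p of the CPM was 0.114. Leaving out single libraries moved the log2 fold change between -0.74 and -0.37.

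Vim, the most abundant member, overlapped between the diets. Its CPM values were 3.39, 5.56, 4.10 and 2.15 on the HFD (138, 373, 181 and 98 counts) and 7.61, 5.32, 3.55 and 6.57 on the CD (314, 194, 191 and 304 counts). CD 1 and CD 4 were the highest libraries and HFD 4 the lowest, with the others interleaved. The means of 3.80 ± 1.42 and 5.76 ± 1.75 CPM differed by a log2 fold change of -0.59 (SE 0.284), with an unadjusted edgeR p of 0.0615, an adjusted p of 0.8293 and an exact permutation p of 0.171.

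Sparc, the collagen-binding matricellular gene, gave no detectable difference. Its CPM values were 2.68, 3.75, 4.24 and 1.42 on the HFD (109, 252, 187 and 65 counts) and 3.73, 2.55, 2.03 and 5.23 on the CD (154, 93, 109 and 242 counts). The highest value was that of CD 4 and the lowest that of HFD 4, and the ranges overlapped widely. The log2 fold change was -0.16 (SE 0.345, 95% interval -1.002 to 0.69), the adjusted edgeR p was 0.925 and the exact permutation p was 0.743. The direction was not stable, since the log2 fold change became 0.07 without HFD 4 and 0.14 without CD 4.

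Mmp2, the gelatinase, was almost absent. It had 1 count in HFD 1 and 0 in the other HFD libraries, against 2, 2, 4 and 0 in CD libraries 1 to 4. Scaled to library size, the ratio of the summed counts, HFD over CD, was 0.112 with an exact 95% interval of 0.00253 to 0.839, which covers counting error only. The exact permutation p of the CPM was 0.143, and edgeR gave an adjusted p of 0.8293. With at most 4 counts in any library, this gene lay at or near the limit of 3 counts below which a level could not be told from 0.

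**Figure D2:**
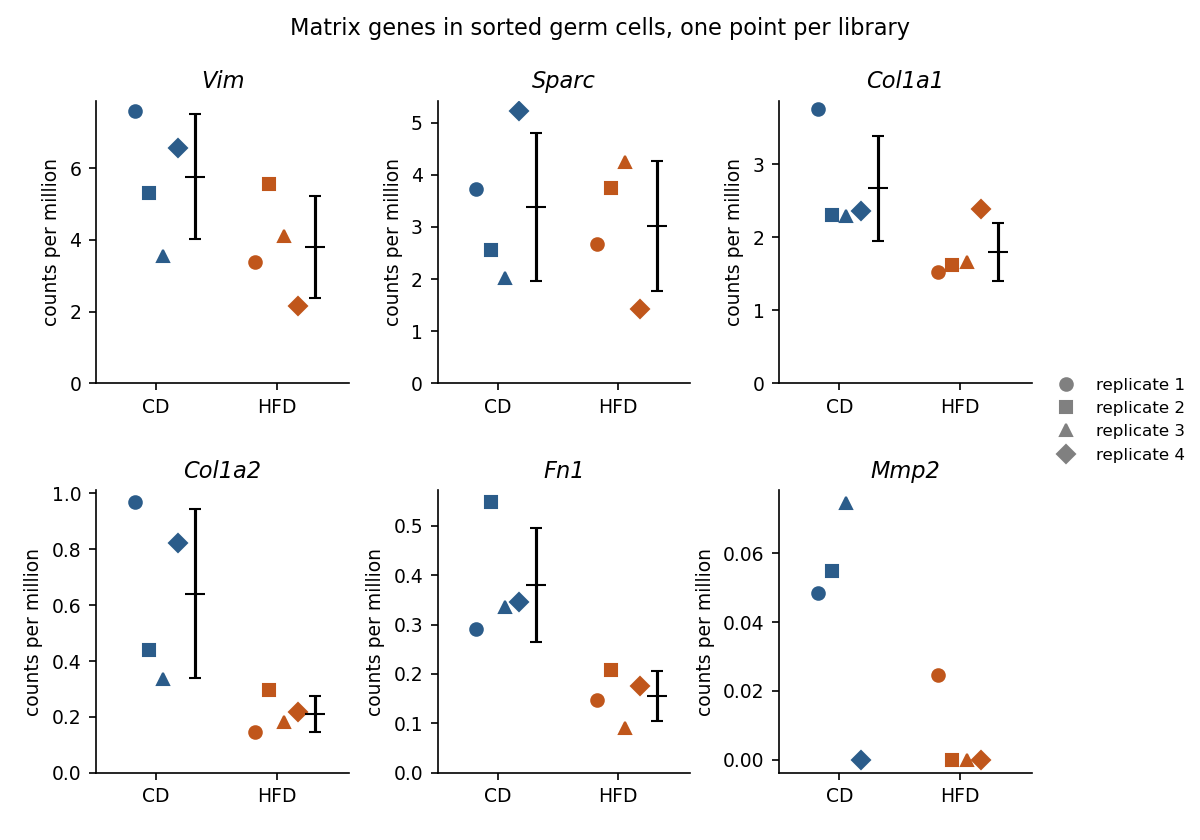
TMM-scaled CPM of each gene in the 4 CD (blue) and 4 HFD (orange) libraries, with symbols for replicate numbers and black bars for mean ± SD (not drawn for Mmp2). The diets separate for Col1a2 (HFD up to 0.298, CD from 0.335) and Fn1 (HFD up to 0.209, CD from 0.291) and overlap for the other genes.

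**Figure D3:**
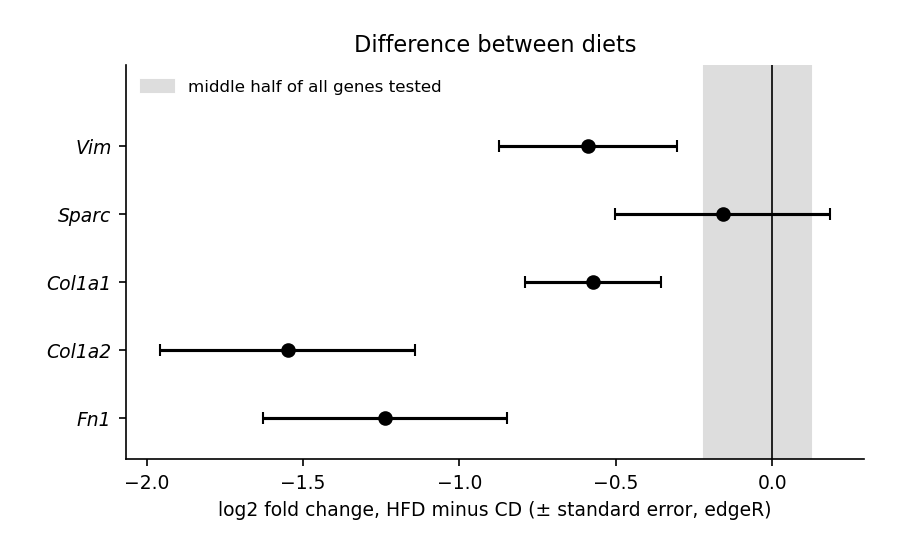
Fitted log2 fold change of HFD minus CD with its standard error for 5 genes (edgeR), beside a grey band from the first to the last quartile of all 19446 tested genes (-0.22 to 0.13). Col1a2 (-1.55) and Fn1 (-1.24) lie farthest from 0 and Sparc (-0.16) inside the band; Mmp2 is not drawn because of its libraries at 0.

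The median log2 fold change was -0.91 over the 6 members and -0.01 over all genes tested, and 5 of the 6 (all but Sparc, and with Mmp2 at its fitted value) were at -0.5 or lower, a range that held 9.81% of all genes. Mmp2, which met the minimum mean count only through its CD libraries, enters both the median and this count. These sizes depended on the model, since in DESeq2 with shrunken fold changes the members lay between -0.40 and -0.06 (median -0.30), with 0 of the 6 at -0.5 or lower (0.0514% of all genes). Summed over the set, the genes took 7.91, 11.4, 10.3 and 6.35 CPM in HFD libraries 1 to 4 and 16.4, 11.2, 8.62 and 15.3 CPM in the CD libraries. CD 1 and CD 4 had the highest sums, whereas CD 2 and CD 3 lay within the HFD range, so the summed level, most of which was Vim and Sparc, overlapped between diets. The mean of the standardized log2 CPM, in which each gene has equal weight, ran from -0.88 to -0.21 in the HFD libraries. In the CD libraries it ran from 0.12 to 1.08, with no overlap. Mmp2, above 0 in 4 of 8 libraries, has the same weight in this mean as the other members. CD 3, the lowest CD library in it, had the highest Mmp2 count (4). It lay below the gene mean for Vim, Sparc and Col1a2 and above it for Col1a1 and Fn1. Relative to the gene means, HFD 2 was above CD 3 for Vim (0.31 against -0.33) and Sparc (0.33 against -0.54). It was below CD 3 for Col1a1 (-0.40 against 0.09), Col1a2 (-0.22 against -0.07) and Fn1 (-0.17 against 0.42). With Mmp2 left out of the mean, CD 3 lay below HFD 2, so the absence of overlap rested on Mmp2. In every library the set made up between 0.000643% and 0.00167% of all counts.

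Without CD 4, the library that stood apart over all genes, Col1a2 had a log2 fold change of -1.40 and an adjusted edgeR p of 0.221, Fn1 -1.28 and 0.221, Col1a1 -0.63 and 0.227, and Vim -0.52 and 0.392. None of the 6 passed the adjusted threshold in that fit either. An unadjusted p under 0.05 was found for 4 of them, as for 17.5% of all genes in the same fit. These 4, which had the lowest adjusted p of the set, were Col1a2, Fn1, Col1a1 and Mmp2 (adjusted edgeR p 0.250), and not Vim. Mmp2 lay at or near the limit of 3 counts in every library.

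Spread between libraries of one diet differed among the members. The biological coefficient of variation fitted by edgeR was 0.340 for Sparc and 0.283 for Vim, against 0.198 and 0.182 for genes of their levels. For Col1a1 it was 0.211, close to the 0.213 of its level, and for Col1a2 it was 0.344 against 0.312. For Fn1 the value of 0.247 was below the 0.361 of its level. The more abundant genes of the set, Sparc and Vim, were thus more variable between libraries than genes of like level, which was not tested.

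Because both collagen chains are assembled into the same molecule, their ratio was taken within each library, where library size cancels. The Col1a1 to Col1a2 ratio of RPKM was 7.92, 4.18, 6.99 and 8.35 in HFD libraries 1 to 4 and 2.97, 4.02, 5.24 and 2.20 in the CD libraries. CD 3 was above HFD 2, and the other libraries separated by diet. The mean ratio was 6.86 ± 1.88 (SD, n = 4) for HFD and 3.61 ± 1.32 for CD. The log2 ratio differed by 0.95 between diets (1.94-fold), with a two-sided exact permutation p of 0.0571, which missed the threshold, and leaving out single libraries gave differences between 0.74 and 1.18.

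Levels of the members were then compared across the 8 libraries, pair by pair. Of the 15 pairs, 12 had a Pearson r above 0 in log2 CPM, with a median of 0.434 and a range from -0.302 to 0.804. None of the 15 passed after adjustment. The collagen chains gave r = 0.804 (exact permutation p = 0.0132, adjusted p = 0.110) and Spearman rho = 0.714 (exact p = 0.0576). Col1a2 and Vim gave r = 0.783 (exact p = 0.0220, adjusted p = 0.110) and rho = 0.786 (exact p = 0.0279). Sparc and Vim gave r = 0.804 (exact p = 0.0154, adjusted p = 0.110) and rho = 0.667 (exact p = 0.0831).

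The 3 pairs with the lowest Pearson p had a lower r without the most extreme libraries. Leaving those out narrows the range, which can itself lower r. Without the 2 libraries farthest from the median of the first gene, r fell to 0.505 for the collagen chains, 0.496 for Col1a2 and Vim, and 0.501 for Sparc and Vim. For Col1a2 and Fn1 it rose to 0.908. The third promoter pair, Sparc and Col1a2, had an r of 0.434 (exact p = 0.281, adjusted p = 0.499), and Sparc had an r of -0.0608 with Col1a1. After the mean of each diet was subtracted, r was 0.878 for Sparc and Vim, 0.676 for Col1a2 and Vim and 0.551 for the collagen chains. For Col1a2 and Fn1 it was then -0.0672, which was also the median over the 15 pairs, and 5 of the 15 were above 0. Without HFD 4, the pair of collagen chains had r = 0.887 and passed (adjusted exact permutation p = 0.0149 over 15 pairs, 7 libraries).

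No library was high or low for every member. CD 1 was highest for Col1a1, Col1a2 and Vim, CD 4 for Sparc, CD 2 for Fn1 and CD 3 for Mmp2. HFD 4 was the lowest library for Sparc and Vim but ranked 2 of 8 for Col1a1. HFD 1 was lowest for both collagen chains, and HFD 3 was lowest for Fn1 although it ranked 2 of 8 for Sparc.

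**Figure D4:**
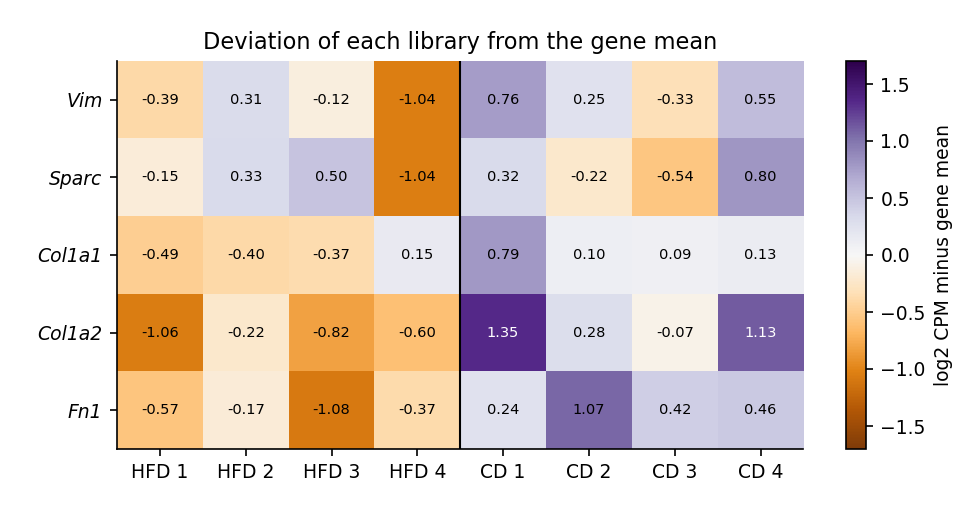
Log2 CPM of 5 genes in each of the 8 libraries as the difference from that gene's mean over the libraries, purple above and orange below. HFD 4 is at -1.04 for both Vim and Sparc but at 0.15 for Col1a1, and CD 1 reaches 1.35 for Col1a2.

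Small counts in these files were mostly even, which bears on the lowest members. Among genes with 1 to 60 counts, between 66.5% and 68.4% had an even count in each mRNA library, and a count of 2 was 3.07 to 3.74 times as frequent as a count of 1. In the piRNA tables of the small RNA libraries, 43.0% to 44.2% of entries in that range were even, and among genes with over 200 counts 50.4% to 51.9% were. Col1a2 and Fn1 had even counts in 8 of 8 libraries, as had Mmp2 in 3 of the 4 libraries where it was above 0. The counting interval given for Mmp2 treats each count as independent, and would be too narrow where counts came in pairs. With all counts divided by 2 and rounded up, an alternative chosen after the data were seen, the Mmp2 ratio was 0.225 with an interval of 0.00457 to 2.27, which includes 1. In the same alternative the edgeR log2 fold change was -1.50 for Col1a2 and -1.19 for Fn1, against -1.55 and -1.24 as deposited. Neither passed after adjustment (adjusted edgeR p 0.830 for each). The cause of the even counts was not tested.

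**Figure D5:**
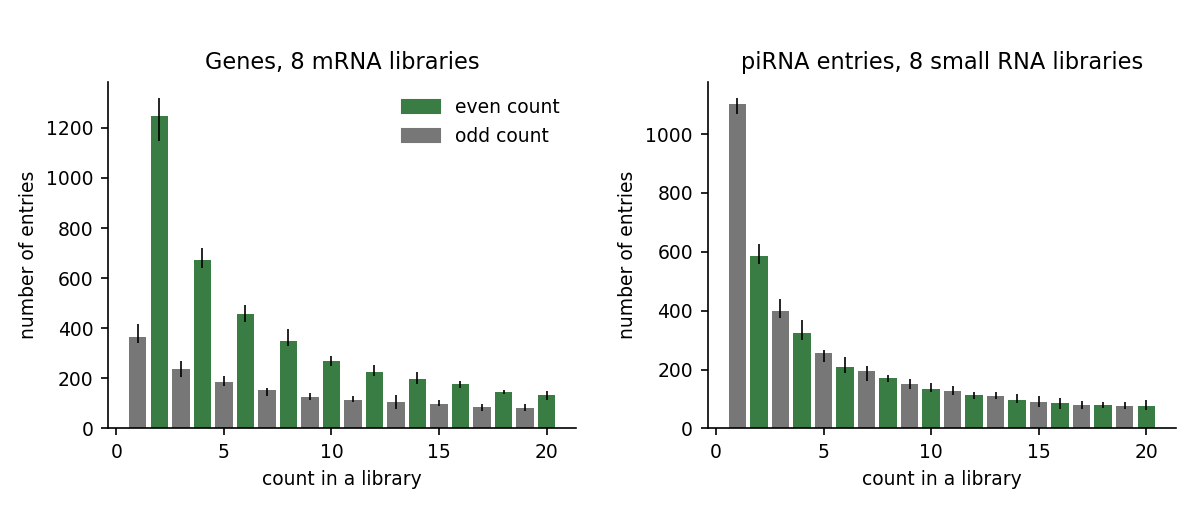
Number of genes (left, 8 mRNA libraries) and of piRNA entries (right, 8 small RNA libraries) at each count from 1 to 20, as the mean with bars from the lowest to the highest library; even counts are green and odd counts grey. Among genes each even bar stands above the odd bars on both sides, and a count of 2 is at least 3.07 times as frequent as a count of 1; among piRNA entries the bars fall off from 1 without such steps.

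The small RNA libraries held no signal that could be placed on these genes. None of the piRNA or miRNA entries overlapped an exon of the 6 members. Within their introns there were 8 piRNA entries, all in Fn1, and each of these was listed at 4880 to 33412 places in the genome, so no count could be assigned to Fn1. No comparison between diets was made on them.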

How the data were processed

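The authors aligned mRNA reads to rn5 with STAR 2.3.0 and deposited, per the file headers, whole-number counts per Ensembl gene from featureCounts 1.4.6, reverse strand only and not as pairs; counts of piRNA and miRNA entries came in separate tables. Member genes and lists were chosen with earlier results of these data known, and all members were named whatever their values. HFD and CD were compared with edgeR 4.0.16 (quasi-likelihood, TMM, mean count of at least 1, Benjamini-Hochberg over all genes; R 4.3.3), with DESeq2 1.42.0 as an alternative. RPKM used TMM library sizes and exon lengths. Log2 RPKM had a prior count of 0.5 and log2 CPM of 2. Two-sided exact permutation tests were own code, in R for the CPM of single genes and in Python 3.11.15 for the others. The Python functions were checked against scipy 1.17.1. Gene lists of markers and of other matrix genes were not used here, because none of the 26560 identifiers matched a symbol. Libraries with the same replicate number were not more alike than others, so they were not treated as pairs. No libraries were duplicates. Scripts were tested on simulated data. Alternatives were other scalings, filters and units, a robust fit, a replicate block, DESeq2 and leaving out each library. The Mmp2 interval covers counting error only, as reads carry no molecular identifiers, and the Sparc interval is from the edgeR standard error, which includes the spread between libraries.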

Additional observations from a re-analysis of the deposited data

Results flagged for a closer look

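In 16 groups of 4 values, a library far from the rest was found in 3. Chance gives about 1 in 20 for a single group, but the groups share genes, so that rate does not apply to the tally. For Col1a1, HFD 4 stood at 2.39 CPM, above the other HFD libraries at 1.52 to 1.66, and CD 1 stood at 3.76 CPM, above the other CD libraries at 2.29 to 2.36. For Mmp2, HFD 1 stood at 0.0246 CPM, which is 1 count, and the other HFD libraries were at 0, a group that any single count would have set apart. The log2 fold change of Col1a1 was -0.74 without HFD 4 and -0.37 without CD 1, against -0.57 with all libraries.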

How the results depend on the processing

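Over all genes, 0 passed in edgeR, 6 in DESeq2 with shrinkage and 7 without it, and between 0 and 1 when single libraries were left out (1 without HFD 4). None of the 6 members passed under any alternative. With DESeq2 shrinkage the log2 fold changes were -0.40 for Col1a2, -0.33 for Col1a1, -0.32 for Fn1, -0.28 for Vim, and -0.06 for Sparc and Mmp2. Sparc ranged from -0.36 to 0.14 when single libraries were left out, turning positive without HFD 4 (0.07) and CD 4 (0.14), and log2 fold changes of the other members with counts in all libraries kept their sign throughout. By CPM without length, 3 of the 5 neighbour pairs in the order passed rather than 5. Between 0 and 1 of the 15 correlations passed when single libraries were left out (1 without HFD 4). Mmp2 dropped out at a mean count of at least 10 and without CD 3. Same-numbered libraries correlated at -0.300, 0.0312, -0.238 and -0.516, so the numbers pair nothing; with the replicate block, 0 genes passed, 322 had an unadjusted p under 0.05 against 725, the adjusted edgeR p was 0.982 for Sparc and 0.972 for the other members, and the exact permutation p of the collagen ratio was 0.125. The small RNA comparison was not run, as no entry lay on a member exon. Depth limits Mmp2 most, and Col1a2 and Fn1 rest on 4 to 40 counts per library.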

Other observations

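The genes whose pattern over the 8 libraries was most like the mean standardized log2 CPM of the 6 members were ENSRNOG00000023334 (Pearson r = 0.963) and ENSRNOG00000017469 (r = 0.953), out of 15252 genes whose counts averaged 10 or more. Among these, 20 genes (0.131%) had r above 0.9 and 11 had r under -0.9. Both named genes had a negative log2 fold change of HFD minus CD, -2.18 and -2.65, with an adjusted edgeR p of 0.8293 each. That direction follows from how they were chosen, because the mean of the members was itself lower in every HFD library. The absence of overlap in that mean rested on Mmp2, which has the same weight in it as the other members. The files pair neither identifier with a symbol, and the likeness is a description over libraries that share scaling and depth.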
